A study of Mus musculus with 12 samples.

Results

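The ribosomal protein pseudogenes described here are 25 genes, chosen from the deposited expression values. They are the genes with a symbol that starts with Rpl or Rps and contains -ps, and whose level was 1 FPKM or higher in 3 libraries or more, out of 6. FPKM counts sequenced fragments relative to the length of the gene and the size of the library. The tables hold 129 genes with such a symbol, of which 42 were at 0 in all 6 libraries and 62 were above 0 without reaching the level, among 27942 genes analysed and 1737 of any kind that reached the level. Because the level chose the members, their levels are given as a description. The libraries came from C2C12, an established line of mouse myoblasts, the mononuclear precursors of muscle fibres, which fuse once serum is lowered. Cells were grown in 10% fetal bovine serum to 80% density and moved to 2% horse serum, and RNA was taken on day 7. The control group was untreated, and the other was given 4-octyl itaconate (OI) at 25 µmol/L, an ester of itaconate that enters cells, with 3 libraries in each. The series concerns an inhibition of muscle differentiation by OI, and the comparison asks how RNA levels differ with and without it. Whether each library of a group is a culture of its own is not in the labels. A p-value here therefore reflects the spread among the libraries, which may be technical.

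Ribosomes are built from ribosomal RNA and a fixed set of proteins, named Rpl in the large subunit and Rps in the small subunit. Their mRNAs are among the most abundant of a cell, and over evolution many were reverse transcribed and inserted elsewhere in the genome, which left processed pseudogenes: copies without introns, usually without a promoter of their own. A young copy differs from the mRNA of its parent gene at few bases, so that a short read of the mRNA can align to the copy as well. Reads counted for these pseudogenes can thus stand partly for the parent mRNAs, and their share was not tested.

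The sequences below set stretches of some copies beside their parents. They were chosen, among gap-free stretches of coding sequence, for the most differences from the parent. They can thus understate the likeness of the whole copies, and deletions or insertions lie outside them. Each line is a stretch of 120 bases, 5′ to 3′, with bases that differ from the parent in capitals. The parents' lines are coding sequence of the GENCODE M21 transcripts, and the pseudogenes' lines are from the GENCODE M21 transcript on GRCm38. The Rpl3 stretch covers coding bases 950 to 1069 and is the same in Rpl3-ps1 (chrX:13203521-13203640, plus strand), while Rpl3-ps2 (chrX:74171604-74171723, plus strand) differs from it at 4 bases. These are shown because both copies come from 1 parent and their levels lay apart.
Rpl3 and Rpl3-ps1: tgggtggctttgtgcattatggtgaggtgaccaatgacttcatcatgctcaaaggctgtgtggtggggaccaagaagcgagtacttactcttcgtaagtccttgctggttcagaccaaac
Rpl3-ps2: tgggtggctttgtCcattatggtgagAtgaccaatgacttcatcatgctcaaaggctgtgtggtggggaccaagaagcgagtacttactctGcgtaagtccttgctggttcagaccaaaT
The Rps12 stretch covers coding bases 211 to 330 and is the same in Rps12-ps4 (chr7:30484770-30484889, minus strand). Rps12-ps24 (chr8:36025948-36026067, plus strand) differs from it at 5 bases, and was the member in which the OI libraries differed most from each other.
Rps12 and Rps12-ps4: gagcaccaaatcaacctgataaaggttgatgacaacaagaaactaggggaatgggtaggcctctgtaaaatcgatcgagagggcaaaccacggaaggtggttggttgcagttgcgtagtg
Rps12-ps24: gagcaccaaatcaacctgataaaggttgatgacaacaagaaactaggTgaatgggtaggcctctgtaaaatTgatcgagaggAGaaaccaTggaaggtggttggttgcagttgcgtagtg
The Rps15a stretch covers coding bases 1 to 120, and starts at the ATG. It differs at 2 bases in Rps15a-ps3 (chr4:150847115-150847234, plus strand), the member with the lowest fold change, and at 15 bases in Rps15a-ps8 (chr4:53791337-53791456, minus strand), the member least like its parent.
Rps15a: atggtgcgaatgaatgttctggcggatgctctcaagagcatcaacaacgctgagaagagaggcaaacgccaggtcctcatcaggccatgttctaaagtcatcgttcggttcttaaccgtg
Rps15a-ps3: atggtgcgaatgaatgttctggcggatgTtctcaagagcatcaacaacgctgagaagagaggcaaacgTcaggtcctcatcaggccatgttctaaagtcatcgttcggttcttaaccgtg
Rps15a-ps8: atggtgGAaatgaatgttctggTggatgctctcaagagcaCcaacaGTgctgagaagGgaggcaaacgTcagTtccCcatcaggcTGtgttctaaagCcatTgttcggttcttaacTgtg
The Rps19 stretch covers coding bases 271 to 390, and Rps19-ps6 (chr12:110898384-110898503, plus strand), the member with the highest fold change, differs from it at 4 bases.
Rps19: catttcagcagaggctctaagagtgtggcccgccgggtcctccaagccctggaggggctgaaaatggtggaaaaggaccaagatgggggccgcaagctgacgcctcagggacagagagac
Rps19-ps6: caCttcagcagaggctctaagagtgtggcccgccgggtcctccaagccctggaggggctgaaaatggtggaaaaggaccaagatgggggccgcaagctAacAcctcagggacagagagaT
Rpl10a-ps1 (chr1:64994485-64994604, minus strand) is the same as Rpl10a over the whole pseudogene, and its copy of coding bases 1 to 120 is shown.
Rpl10a and Rpl10a-ps1: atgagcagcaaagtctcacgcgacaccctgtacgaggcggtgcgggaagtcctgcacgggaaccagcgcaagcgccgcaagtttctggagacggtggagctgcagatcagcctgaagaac

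The 25 members come from 21 parent genes, 14 of them copies of large subunit and 11 of small subunit mRNAs. Rpl3, Rps2, Rps12 and Rps15a gave 2 members each. All 25 have 1 exon, 24 are annotated as processed pseudogenes, and Rps2-ps10 is annotated as a transcribed processed pseudogene. In a BLAST search against protein-coding transcripts, the best match was the parent named in the symbol for 25 of 25 members. The aligned part extended no more than 20 bases beyond either end of the parent's coding sequence in 23 of the 25. None of the 21 parents has a row in the tables analysed here, so no member could be set beside its parent's own value.

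The members are close copies. Identity to the parent had a median of 99.2% and ran from 92.2% in Rps15a-ps8 to 100% in Rpl10a-ps1, Rpl36a-ps2 and Rps23-ps1, which are identical to their parents over their whole length. An open reading frame at least as long as the parent's was found in 13 of the 25, and 15 came within 3 codons of it or longer. Frames were read to the first stop codon or to the annotated end of the copy. A shorter frame is thus not always a damaged one: Rps23-ps1, without a difference from its parent, had 141 codons against 143. In Rps12-ps4, a copy of a protein of the small subunit head, a deletion of 2 bases with no other difference left a longest frame of 73 codons against 132 in the parent. In Rps2-ps6 a deletion of 24 bases left 285 codons against 293, and in Rps12-ps24 one of 15 bases left 127 against 132. The longest frame was shorter than 50% of the parent's in Rps15a-ps3 with 50 against 130 codons and in Rps4x-ps with 84 against 263 codons, while Rps12-ps4 lay just above.

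Identity and level went together among the 126 of the 129 genes that match their parent. No gene under 90% identity reached the level that defines the members (0 of 35), against 2 of 34 at 90% to 95%, 4 of 30 at 95% to 98%, 6 of 13 at 98% to 99% and 13 of 14 at 99% or more. The median of the mean FPKM in those 5 ranges was 0, 0.0363, 0.0980, 1.06 and 34.2. The 1 gene at 99% or more that stayed out was Rpl35a-ps5, with 99.1% identity and a mean of 0.604 FPKM. The genes outside the rule had a median identity of 91.8%, and those at 0 in all libraries 86.6%. Among the 25 members alone, Spearman's rho between identity and mean FPKM was 0.65, and between length and mean FPKM 0.20. These coefficients describe genes of the same 6 libraries, some with a shared parent.

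Likeness to the parent and likeness to any transcript were not the same. Of all stretches of 100 bases in a member, a median of 69.5% occurred unchanged in a transcript of some other gene and 52.5% in a transcript of the parent, against medians of 0 for both in the 104 genes outside the rule. At least 50% of the stretches occurred in the parent in 13 members, and in 0 of the genes outside the rule. There were 9 pseudogenes of Rps12 on chromosome X for which every stretch occurred in another transcript, at most 15.7% of them in the parent, and their mean level was 0.113 FPKM or less. In all, every stretch was shared in 11 genes outside the rule, with at most 18.6% in the parent and a mean of up to 0.806 FPKM. Rps15a-ps8 was the only member with no stretch in another transcript, and Rps4x-ps had stretches in other pseudogenes but 0 in its parent. Both lay at the lower edge of the rule. Among the 25 members, Spearman's rho between mean FPKM and the share of stretches in any other transcript was 0.68, beside 0.65 for identity.

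**Figure D1:**
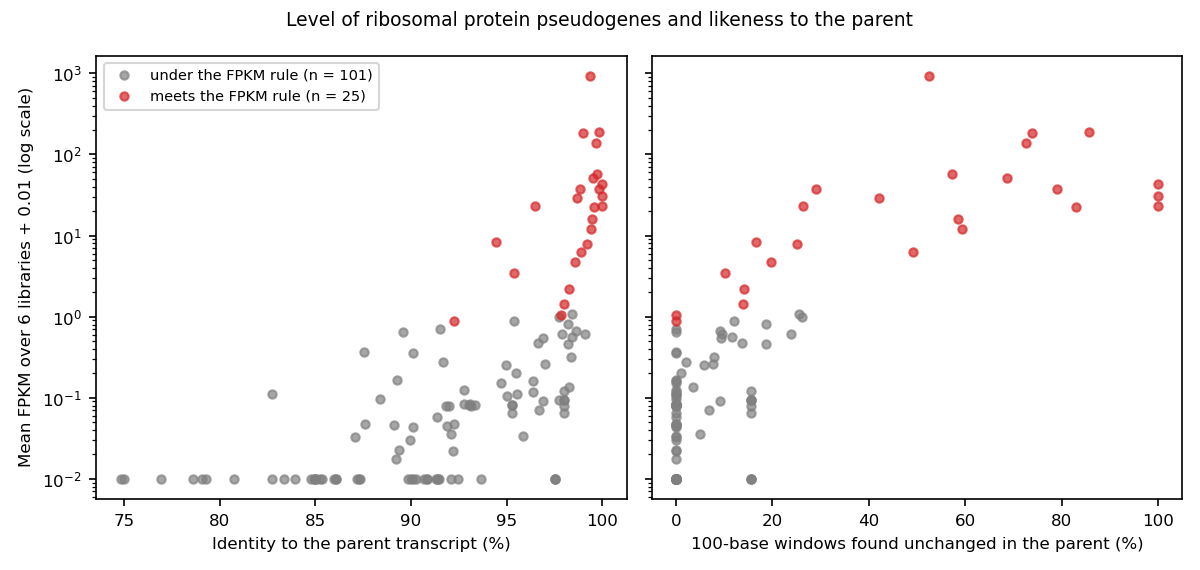
Mean FPKM over the 6 libraries, with 0.01 added, on a log axis against identity to the parent transcript (left) and against the share of 100-base stretches found unchanged in the parent (right). Red points are the 25 members and grey points the 101 other genes with a match to the parent; the members sit at 92.2% identity or more, and only members reach 50% on the right.

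Of the 25, 13 lie in the body of another gene, which is protein-coding for 11 and overlaps in introns only for 9 of these, in 5 on the same strand. Exons were shared by 2 members. Rps12-ps4 shares 183 bases with Nphs1 on the opposite strand, and Rps23-ps1 shares 396 bases with Gm5148 on the opposite strand. Whether the counting used strand is not stated in the labels or notes, so reads of these overlapping genes cannot be told apart. Rps2-ps10 lies within Pde6a on the opposite strand, without exonic overlap.

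Levels of the members spanned 3 orders of size, from a mean of 0.885 FPKM in Rps15a-ps8 to 934 FPKM in Rps2-ps10. The mean was 100 FPKM or more in 4 members, between 10 and 100 in 12 and under 10 in 9. The reads behind a value ran from 3 to 35638, so the lowest members rest on few reads. All 6 libraries reached 1 FPKM in 22 members, and 0 members passed with every library of 1 group below that level. Just inside the rule lay Rpl7-ps7, Rps4x-ps and Rps15a-ps8, with 1.46, 1.08 and 1.01 FPKM in the library that ranked 3 of 6, and just outside lay Rpl31-ps14, Rpl7a-ps7 and Rps19-ps4, with 0.970, 0.953 and 0.924 FPKM.

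**Figure D2:**
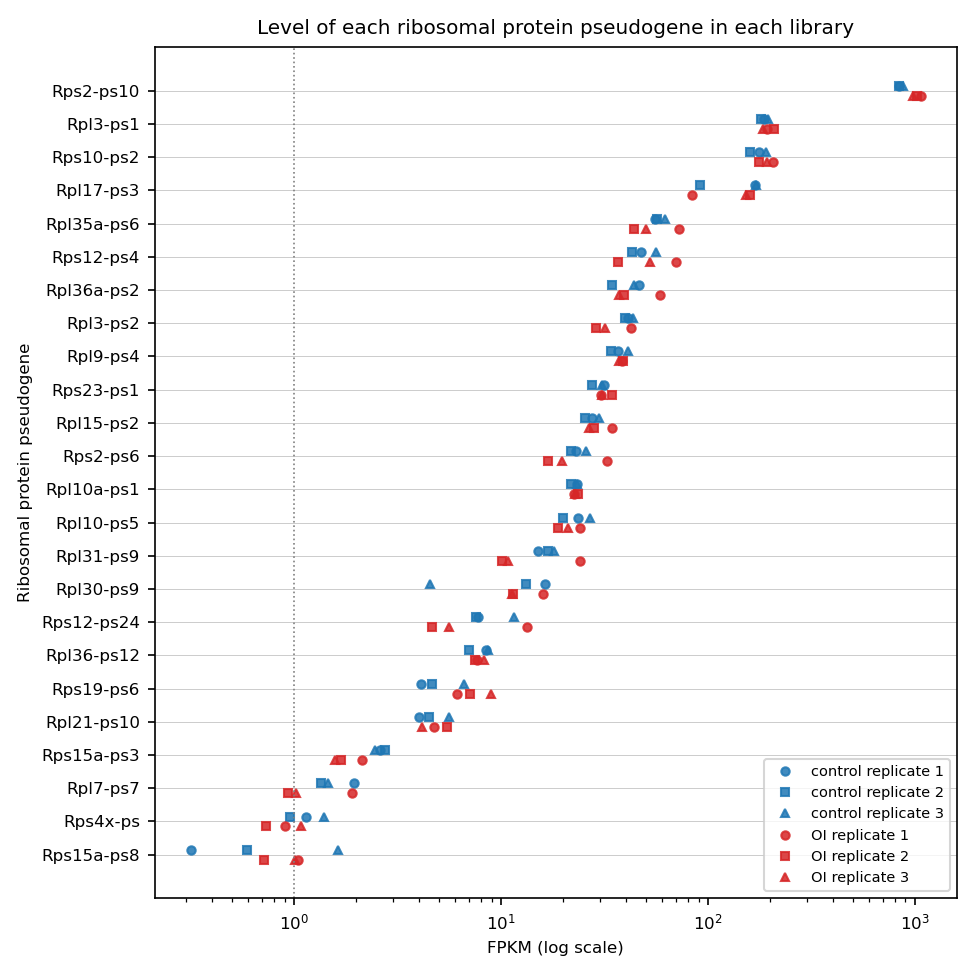
FPKM of 24 members in each of the 6 libraries, on a log axis, with control in blue and OI in red and 1 symbol per replicate. The members run from 0.885 to 934 FPKM on average, and the red and blue symbols lie apart only in Rps2-ps10 and Rps15a-ps3; the dotted line marks 1 FPKM.

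For the series as a whole, library sizes recovered from the FPKM steps lay between 24441000 and 36274000 reads or fragments. Control replicate 1 stood apart in many genes: it alone was at the far end of the first principal component, which held 34.1% of the variance, and the genes analysed took 23.9% of its reads against 5.25% to 5.77% elsewhere. In it the ribosomal RNA-derived gene AY036118 was at 70761 FPKM against 691 to 2450 FPKM, Malat1, a nuclear non-coding RNA, at 1769 against 312 to 429 FPKM, and the histone gene Hist2h3c1 at 1.64 against 20.1 to 26.0 FPKM. That library was the lowest of the 6 in 3 members and the highest in 3. Of the 22 muscle markers chosen for the check, the tables hold only Tnnc1, the slow muscle and cardiac troponin C, at 110 to 140 FPKM in control and 21.9 to 24.7 FPKM in OI. None of the 6 fibroblast and 4 adipocyte markers is in them. A wide range of gene identifiers was not analysed here, so the absence of a marker does not describe the cells. In bulk RNA, fewer cells of a type and less RNA per cell cannot be told apart.

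Among the large subunit copies, Rpl3-ps1 had the highest level. Its parent encodes a protein near the peptidyl transferase centre. In the order of replicates 1 to 3, used throughout, Rpl3-ps1 had 187, 180 and 194 FPKM in control and 192, 208 and 185 FPKM in OI, and the groups overlapped. Its log2 fold change, OI over control, was 0.06 ± 0.07 (SE; limma adjusted p = 0.745). Rpl3-ps2, a second copy of that mRNA with 98.8% identity against 99.8%, was at 41.0, 39.7 and 43.6 FPKM in control and at 42.7, 28.8 and 31.6 FPKM in OI. OI replicates 2 and 3 lay below all controls and OI replicate 1 among them. The log2 fold change was -0.28 ± 0.15 (SE; limma adjusted p = 0.387).

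Rpl17 encodes a protein that lines the tunnel through which the new chain leaves. Its copy Rpl17-ps3 was at 169, 91.5 and 170 FPKM in control and at 83.3, 159 and 153 FPKM in OI. In each group 1 library was low and the other 2 were high, control replicate 2 and OI replicate 1. The standard deviation was 31.4% of the mean in control and 31.9% in OI, where the reads counted would give 2.12% and 2.09% from counting error alone. The log2 fold change was -0.12 ± 0.34 (SE; limma adjusted p = 0.902).

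Rpl31-ps9 and Rpl30-ps9 also had 1 library far from its group. Rpl31, whose product sits near the exit of the tunnel, has the copy Rpl31-ps9, at 15.05, 16.8 and 18.1 FPKM in control and 24.0, 10.1 and 10.8 FPKM in OI. OI replicate 1 was the highest and the other 2 OI libraries the lowest of the 6. Rpl30-ps9, copied from an mRNA whose product in yeast binds its own transcript, was at 16.2, 13.2 and 4.54 FPKM in control and 15.9, 11.4 and 11.3 FPKM in OI. Here control replicate 3 was the lowest of the 6. The log2 fold changes were -0.24 ± 0.31 for Rpl31-ps9 and 0.31 ± 0.43 for Rpl30-ps9 (SE; limma adjusted p = 0.762 and 0.786). That of Rpl31-ps9 was -0.62 without OI replicate 1 and -0.033 without OI replicate 2.

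Rpl35a-ps6 and Rpl36a-ps2 had the same high library. Rpl35a, a gene mutated in some patients with Diamond-Blackfan anaemia, has the copy Rpl35a-ps6, at 55.4, 56.8 and 61.8 FPKM in control and 72.5, 43.7 and 50.04 FPKM in OI. Rpl36a-ps2, identical to an mRNA whose product lies at the exit site for tRNA, was at 46.5, 34.3 and 43.8 FPKM in control and 58.8, 39.4 and 37.2 FPKM in OI. In both, OI replicate 1 was the highest of the 6 and the groups overlapped. Log2 fold changes were -0.10 ± 0.18 and 0.10 ± 0.20 (SE; limma adjusted p = 0.852 and 0.859).

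The steadiest member was Rpl10a-ps1, singled out after its values were seen. Its parent encodes the protein of the mobile L1 stalk. It was at 23.2, 21.7 and 23.3 FPKM in control and at 22.6, 23.5 and 22.8 FPKM in OI. The standard deviation was 3.97% and 2.09% of the mean, below the 4.88% and 4.60% that counting error alone would give for its reads. The log2 fold change was 0.02 ± 0.07 (SE; limma adjusted p = 0.952).

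Among the small subunit copies, Rps2-ps10 had the highest level of all 25. Rps2 encodes a protein at the channel where the mRNA enters the ribosome. Rps2-ps10 (chromosome 18, 61259008 to 61259972, GRCm38, minus strand, 99.4% identity) was at 838, 837 and 871 FPKM in control and at 1064, 1018 and 975 FPKM in OI. All 3 OI libraries lay above all 3 controls, with means of 849 ± 19.3 and 1019 ± 44.5 FPKM (SD, n = 3 each). The log2 fold change was 0.26 ± 0.07 (SE), and it did not pass the threshold of 0.05 in the fit to FPKM (limma adjusted p = 0.124). A limma voom fit to the recovered read numbers gave 0.27 and did pass (adjusted p = 0.0283). Over all alternatives the adjusted p ran from 0.0283 to 0.625. The counted reads, 19755 to 35638 per library, would give a standard deviation of 0.656% of the mean in control from counting error alone, against 2.28% measured.

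Rps2-ps6, a second Rps2 copy with 96.5% identity, did not show that order. It was at 23.1, 21.8 and 25.7 FPKM in control and at 32.4, 16.8 and 19.6 FPKM in OI. OI replicate 1 was the highest of the 6 and the other 2 OI libraries the lowest. Its log2 fold change was -0.09 ± 0.23 (SE; limma adjusted p = 0.895). The difference between the 2 copies was not tested.

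Rps10-ps2, a copy of the mRNA of a small subunit head protein that is ubiquitinated at collided ribosomes, was at 175, 159 and 191 FPKM in control and 207, 177 and 192 FPKM in OI. Rps23-ps1, identical to the mRNA of a protein at the decoding centre, was at 31.3, 27.4 and 30.6 FPKM in control and 30.5, 34.2 and 30.6 FPKM in OI. In both the groups overlapped. Log2 fold changes were 0.13 ± 0.10 and 0.09 ± 0.09 (SE; limma adjusted p = 0.548 and 0.639).

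The 2 copies of Rps12 were high in the same OI library. Rps12-ps4 was at 47.5, 42.9 and 55.8 FPKM in control and at 70.2, 36.6 and 52.2 FPKM in OI. Rps12-ps24 was at 7.73, 7.57 and 11.6 FPKM in control and at 13.4, 4.63 and 5.62 FPKM in OI. OI replicate 1 was the highest and OI replicate 2 the lowest of the 6 in both copies. The log2 fold changes were 0.08 ± 0.24 for Rps12-ps4 and -0.27 ± 0.37 for Rps12-ps24 (SE; limma adjusted p = 0.920 and 0.786). That of Rps12-ps24 was -0.68 without OI replicate 1 and -0.0041 without OI replicate 2.

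The outermost fold changes belonged to low small subunit copies. Rps19, the gene most often mutated in Diamond-Blackfan anaemia, has the copy Rps19-ps6, at 4.11, 4.64 and 6.62 FPKM in control and 6.11, 7.11 and 8.98 FPKM in OI. The groups overlapped through control replicate 3, and the log2 fold change of 0.46 ± 0.19 did not pass the threshold (SE; limma adjusted p = 0.280). Rps15a-ps3, a copy of the mRNA of a small subunit protein, was at 2.59, 2.74 and 2.45 FPKM in control and at 2.13, 1.68 and 1.58 FPKM in OI. All OI libraries lay below all controls, on 16 to 33 reads per library. The standard deviation was 5.58% of the mean in control and 16.4% in OI. Counting error alone would give more for these reads, 18.6% and 21.2%. The log2 fold change of -0.37 ± 0.10 did not pass the threshold either (SE; limma adjusted p = 0.150), and it was -0.52 with a pseudocount of 0.1 in place of 1. The voom fit to recovered reads gave -0.53 with a wider error of 0.22 (SE; limma voom adjusted p = 0.342).

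Rps15a-ps8, the other copy of Rps15a, was at 0.317, 0.593 and 1.64 FPKM in control and at 1.05, 0.712 and 1.01 FPKM in OI, on 3 to 19 reads. No direction was detectable at this depth, with a log2 fold change of 0.12 ± 0.26 (SE; limma adjusted p = 0.873). Rps4x-ps and Rpl7-ps7 had log2 fold changes of -0.18 ± 0.13 and -0.20 ± 0.19 (SE; limma adjusted p = 0.523 and 0.654). The 6 members not named by the rule for named genes (Rpl9-ps4, Rpl15-ps2, Rpl10a-ps1, Rpl10-ps5, Rpl36-ps12 and Rpl21-ps10) had means between 4.74 and 37.6 FPKM and log2 fold changes from -0.12 to 0.10.

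Between control and OI, 0 of the 25 members passed the limma threshold, where 2.76% of all genes tested did, 1.15% with OI higher and 1.61% with OI lower. At an unadjusted p under 0.05 it was 3 members (Rps2-ps10, Rps15a-ps3 and Rps19-ps6), against 17.8% of all genes. The voom fit called 1 member, Rps2-ps10, against 2.02% of 3066 genes. Groups that did not overlap were found in 2 members, Rps2-ps10 with OI higher and Rps15a-ps3 with OI lower, against 23.6% of all genes, of which 11.1% higher and 12.5% lower. The fold changes of the members were small. Their median log2 fold change was 0.02, beside -0.02 over all genes tested, 13 lay above and 12 below 0, and 17 were smaller than 0.2 in either direction. With control replicate 1 left out, 0 members passed as well. All genes tested, the background of these shares and of those below, are a mixed set. Of the 1737, 310 are protein-coding and 393 processed pseudogenes, and the median level was 2.82 FPKM against 22.9 FPKM in the members.

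**Figure D3:**
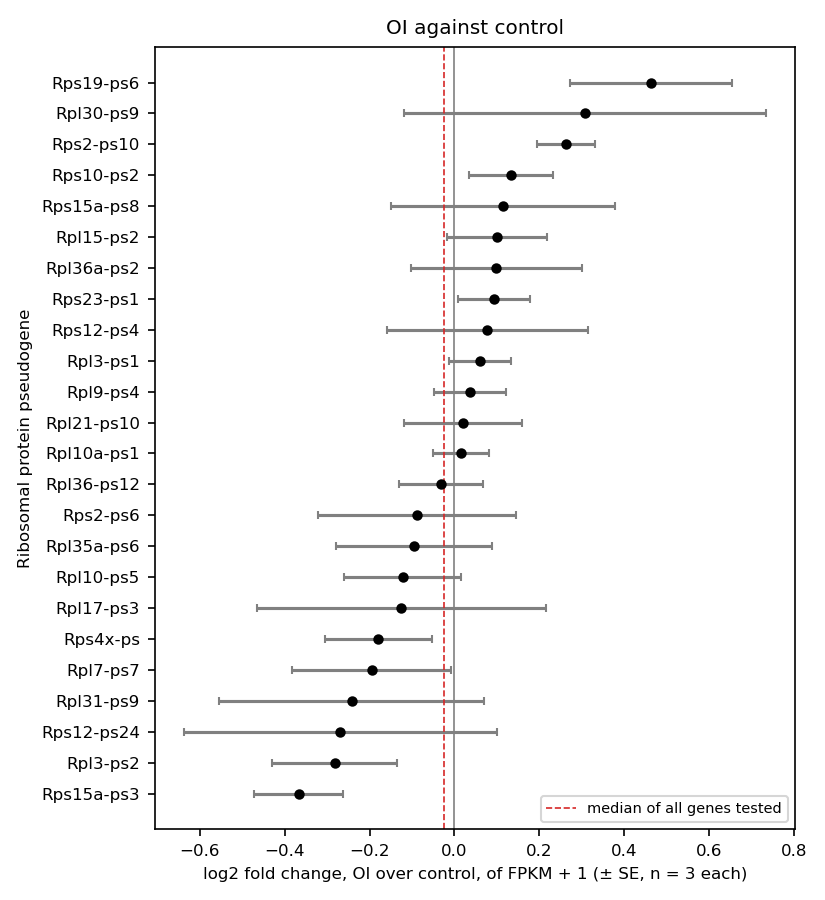
Log2 fold change of FPKM + 1, OI over control, of 24 members with its SE (n = 3 libraries in each group), ordered by value. Values run from -0.37 in Rps15a-ps3 to 0.46 in Rps19-ps6 on both sides of the median of all genes tested (dashed red), and none passed the threshold in this fit.

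Rps2-ps10 gave the largest part of the summed level of the members. Together the 25 had 1791, 1653 and 1875 FPKM in control and 2056, 1923 and 1891 FPKM in OI, means of 1773 ± 112 and 1957 ± 87.3 (SD, n = 3 each), a ratio of 1.10. All OI libraries lay above all controls in this sum. Summed as reads over library size, the ratio was 1.12. Rps2-ps10 gave 55.6% to 59.1% of the members' reads in control and 60.6% to 61.2% in OI. Without Rps2-ps10, the sum of FPKM was 925 ± 97.3 in control and 938 ± 47.1 in OI (SD, n = 3 each), a ratio of 1.01, and the groups overlapped.

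The same few libraries were often at the top or the bottom of the 6. OI replicate 1 was the highest in 9 of 25 members, or 36.0%, against 16.9% of all genes tested, and the highest of the 3 OI libraries in 16 of 25. The ratio of OI replicate 1 to the mean of OI replicates 2 and 3 had a median of 1.22 over the members and 1.01 over all genes. It reached 1.5 in 8 members, with 2.61 in Rps12-ps24 and 2.30 in Rpl31-ps9 at the top, and was lowest at 0.534 in Rpl17-ps3. Among the members, Spearman's rho between this ratio and identity to the parent was -0.39, a description over genes of the same libraries. Other libraries recurred about as often. OI replicate 2 was the lowest of the 6 in 10 members, against 18.9% of all genes, and control replicate 2 in 9, against 14.6%. Control replicate 3 was the highest in 8 members, against 19.9% of all genes.

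Leaving out OI replicate 1 takes away the library that was high in many members, and so lowers their OI means by construction. It can also narrow the spread of the OI libraries from which p is computed. The counts that follow are a description over genes of the same libraries, some with a shared parent. In limma 10 of 25 then had an unadjusted p under 0.05, against 17.4% of all genes, and 8 of the 10 were lower in OI, against 10.9% of all genes. Leaving out any of the other 5 libraries gave 2 or 3 such members. None of the 10 passed the adjusted threshold. The smallest adjusted p-values from limma were 0.0676 for Rpl31-ps9, with a log2 fold change of -0.62, and 0.0741 for Rpl3-ps2 with -0.44. The median log2 fold change of the members moved to -0.02, beside -0.03 over all genes. Depth in OI replicate 1 (32122000) lay within the range of the other libraries, and its share of reads in the genes analysed was 5.77%, against 5.33% and 5.70% in the other OI libraries. The part of these measures in the pattern was not tested.

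**Figure D4:**
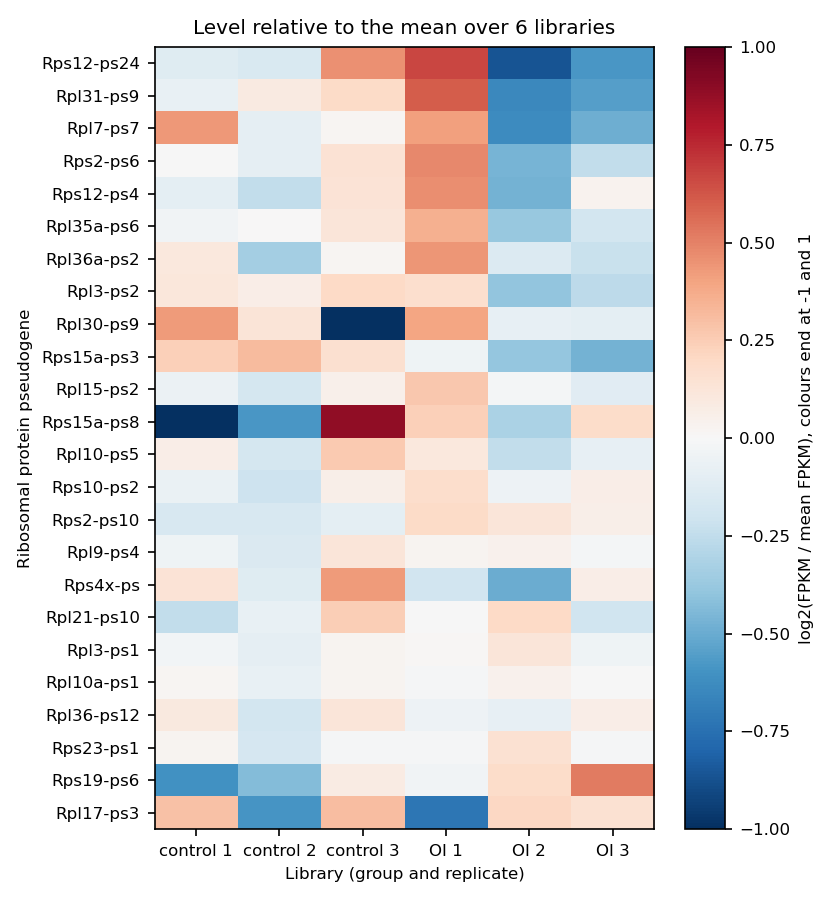
Level of 24 members in each library as log2 of FPKM over its mean of the 6 libraries, red above and blue below, with colours ending at -1 and 1. Members are ordered by the ratio of OI replicate 1 to the other OI libraries, from 2.61 in Rps12-ps24 at the top to 0.534 in Rpl17-ps3 at the bottom, and the upper rows are red in OI replicate 1 and blue in OI replicates 2 and 3.

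The same library was high in related genes. The tables hold 6 protein-coding ribosomal protein genes, of which 5 were tested. OI replicate 1 was the highest of the 6 libraries in 3 of these 5, and the median ratio to the other OI libraries was 1.27. For example Rpl41, which encodes the smallest ribosomal protein, was at 258, 225 and 262 FPKM in control and 271, 194 and 206 FPKM in OI. Another 74 tested pseudogenes carry other symbols but match a ribosomal protein transcript best. In these OI replicate 1 was the highest in 37 of 74, with a median ratio of 1.35. Of the 311 remaining processed pseudogenes it was highest in 26.4%, with a median ratio of 1.08. These lists were not tested against each other.

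None of the 5 coding ribosomal protein genes and none of the 74 matching pseudogenes passed the limma threshold between the groups, with 0 and 5 at an unadjusted p under 0.05. Their median log2 fold changes were -0.10 and 0.01. Of the 311 remaining processed pseudogenes 6 were called higher and 2 lower in OI. Translation factors and other mRNAs that share the terminal oligopyrimidine start of ribosomal protein mRNAs have no rows of their own here, and 14 tested pseudogenes match them. OI replicate 1 was the highest of the 6 libraries in 7 of these 14, with a median ratio to the other OI libraries of 1.15. Several of the 14 share a parent, Eef1a1 or Npm1, and so are not separate observations. None of the 14 passed in limma, and 2 had an unadjusted p under 0.05. In log2 fold change 10 lay above 0, against 774 of the 1737 genes tested, with a median of 0.15. The highest was Gm9512, a copy of the elongation factor mRNA Eef1a1, with 0.33 ± 0.15 (SE; limma adjusted p = 0.306). For ribosome biogenesis 1 pseudogene was tested, Gm5067, a copy of Rrs1, with a log2 fold change of 0.78 ± 0.20 (SE; limma adjusted p = 0.121).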

How the data were processed

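RNA-seq gene tables of 3 control and 3 OI libraries of C2C12 cells were used, made from total RNA with a TruSeq kit per the labels' protocols. The authors deposited FPKM values, 1 table per sample, with gene symbol, biotype, position and length. The submitters' processing notes name HISAT2 2.1.0, StringTie 1.3.3b and cutadapt 2.7, and the mouse build mm10. How reads that align to several genes were handled, and whether strand was used, is not given in the sources. Genes with identifiers between ENSMUSG00000000320 and ENSMUSG00000083778, among them all parents of the members, and a second set of 3 control and 3 OI samples were not analysed here.

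Genes at 1 FPKM or more in at least 3 of 6 libraries (1737) were tested on log2(FPKM + 1) with limma 3.58.1 (R 4.3.3), trend=TRUE, two-sided, without a replicate block, with Benjamini-Hochberg adjustment over all of them and a threshold of 0.05. A fold change on this scale understates the change of low genes. FPKM times length gave whole read numbers in genes of 1 exon (100% within 0.01 of a whole number), which covers all members. Over all genes the share was 84.5% to 86.0%, so the voom fit on recovered reads (at least 10 in 3 libraries or more) is approximate outside genes of 1 exon. The limma script was tested on simulated data. Annotation and transcripts came from GENCODE M21 (GRCm38), in which all 25 members have the same position. Transcripts were matched with BLAST+ 2.17.0 (blastn, plus strand, E-value at most 1e-10), identity counting gaps as differences. Identity refers to the aligned part only, which was 96.8% of Rps2-ps10 and 96.2% of Rpl36-ps12. The ranges of identity set no minimum for the length aligned. Shared stretches were all windows of 100 bases found unchanged in a transcript of another gene.

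The members and lists were chosen with earlier results of these data known. The values of 1 member are not reported here and it is not drawn by name in the figures, though counts over the 25 include it. Named members were those called, the 8 highest by mean, the 5 highest and 5 lowest fold changes, those sharing exons, all from parents with 2 members, and those at the edge of the rule. As alternatives the pseudocount was 0.1 or 5, the filter was dropped or set to 5 FPKM, values were scaled by median of ratios or by quantiles, trend=FALSE, voom or a replicate block was used, and each library was left out in turn. Figures were drawn with Matplotlib 3.10.9, and tables made with pandas 2.3.3 and SciPy 1.17.1 in Python 3.11.15.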

Additional observations from a re-analysis of the deposited data

How the results depend on the processing

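The count of members called was 0 under 14 of the 15 alternatives and 1 with voom on recovered reads, which called Rps2-ps10 (log2 fold change 0.27, limma voom adjusted p = 0.0283). Over all genes 48 were called, but 14 without a filter on low values, 17 with the replicate block, and 15 to 27 when 1 library was left out (24 without control replicate 1, 15 without OI replicate 2). The members' median log2 fold change stayed between -0.03 and 0.02 with 1 library left out, and the ratio of their summed FPKM between 1.07 and 1.14. Whether replicate numbers pair the libraries is not settled by these values. Deviations of same-numbered libraries correlated at 0.0469, 0.138 and -0.0840, and those of differently numbered libraries at -0.141 to 0.0781. With the replicate block 0 members were called, as without it. Fold changes of named members kept their direction and their side of the threshold in 247 of 261 values. With quantile normalization Rpl17-ps3 turned to 0.14 and Rpl35a-ps6 to 0.0084. With 1 library left out, log2 fold changes ran from -0.42 to 0.17 in Rpl17-ps3, -0.10 to 0.40 in Rps15a-ps8, -0.15 to 0.31 in Rps12-ps4, -0.10 to 0.22 in Rpl36a-ps2, -0.19 to 0.63 in Rpl30-ps9, -0.30 to 0.056 in Rpl35a-ps6 and -0.36 to 0.10 in Rps2-ps6. The cause of these changes was not tested. Depth limits the lowest members, since 10 of the 25 had fewer than 100 reads in at least 1 library.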
